A study of Mus musculus with 23 samples.

Results

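Rpl3l and Rpl3 are paralogous genes for ribosomal protein L3, and every probe set listed for either symbol was taken. These are 2 of 13319 gene symbols on the array, read by 3 of 22690 probe sets, 1 for Rpl3l and 2 for Rpl3. The pair was selected on its measured signals: Rpl3l was lower and Rpl3 higher in injured muscle of this series, so the changes from day 0 are given below as a description, without a test. Differences between genotypes, differences between day 3 and day 4, and differences between genotypes in the change were not themselves used in that choice and were tested. Those in the change from day 0 are built from the same changes that served in the choice. They are therefore not fully separate from it.

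The arrays measured RNA of mouse gastrocnemius muscle in 9 groups. Emerin KO (knockout) mice gave 2 arrays on day 0 and 3 each on days 3 and 4. Lamin A/C KO mice gave 3 arrays on each day, and control mice gave 2 on each day, which makes 23 arrays. Emerin, of the inner nuclear membrane, and lamin A/C, of the lamina beneath it, are both altered in forms of Emery-Dreifuss muscular dystrophy. Days 3 and 4 count from an injection into the muscle. Day 0 muscle of emerin KO and control mice was not injected, while that of lamin A/C KO mice is described as taken 0 days after injection. The injected agent, the strain, the age and the design of the knockout alleles are not given in the labels. The 6 control arrays carry the name of the lamin A line in their titles, and both knockouts were compared with these same arrays. Nothing in the labels says that replicate arrays are different animals, and the p-values therefore measure only the spread between the samples, which may be technical.

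Every ribosome of a mammalian cell carries 1 copy of protein L3, which reaches from the surface of the large subunit towards the centre where peptide bonds are made. Rpl3 is used in nearly all tissues. Rpl3l is restricted to skeletal muscle and heart, where its product takes the place of Rpl3 in ribosomes of mature fibers. In mice, Rpl3l is known to fall and Rpl3 to rise when muscle grows under overload, and mice without Rpl3l have more Rpl3. Human RPL3L variants have been linked to heart muscle disease.

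The Rpl3l probe set lists that gene alone and carries the accession of its RefSeq transcript. The gene lies on chr17:24727826-24736143 in GRCm38.p6, which is the build of the RefSeq gene table used here for names. The brighter Rpl3 probe set carries the accession of the Rpl3 transcript but lists the pseudogene Gm12816 too. Rpl3 itself lies on chr15:80077781-80083406. The dimmer set lists Rpl3 with the pseudogenes Gm12816 and Gm5879. No probe set is listed for Rpl3 alone, so each Rpl3 value may include signal of these pseudogenes.

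The RefSeq table lists 2 starts for Rpl3l. The 250 bases before the first, where the annotated gene begins, are shown because Rpl3l is the member that was lower in injured muscle. They are chr17:24727576-24727825 on the plus strand (RefSeq, GRCm38.p6), 5′ to 3′, with capitals marking each E-box (CANNTG, which reads the same way on both strands), the short motif that myogenic bHLH factors such as MyoD recognise.
Rpl3l: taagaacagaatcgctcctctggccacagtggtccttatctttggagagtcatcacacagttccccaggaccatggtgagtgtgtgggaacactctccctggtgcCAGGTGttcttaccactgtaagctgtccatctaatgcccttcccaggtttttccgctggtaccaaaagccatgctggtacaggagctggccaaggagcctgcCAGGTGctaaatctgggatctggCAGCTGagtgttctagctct
This stretch holds 3 E-boxes. Of 32851 RefSeq promoters of the same length, 66.2% hold at least 1 E-box and 12.2% hold as many as Rpl3l. The core CATTCC of the MCAT motif, searched on both strands, had 0 matches here and occurs in 12.6% of promoters. The motif of MEF2 also had 0 matches and occurs in 2.92%. The 250 bases before the other listed start, chr17:24732435-24732684, hold 1 E-box, 0 MCAT cores and 2 MEF2 matches, and are not printed. The MEF2 motif also reads the same way on both strands, so these 2 matches are 1 site counted on each strand. Such matches describe letters, not binding.

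In day 0 muscle Rpl3l was among the brightest probe sets of the array. The values below are MAS5 signals, a linear intensity, brought on every array to the same trimmed mean of 500. On day 0 Rpl3l had 7219 and 7499.7 in emerin KO muscle, 6114, 5359.6 and 6967 in lamin A/C KO muscle, and 7047 and 5801 in control muscle. These 7 values were brighter than 97.8% to 98.7% of all probe sets on their arrays, and the 16 injured values than 18.2% to 72.0%. On day 3 Rpl3l had 135, 142 and 188 in emerin KO muscle, 49.9, 91.4 and 127 in lamin A/C KO muscle, and 101 and 349 in control muscle. On day 4 it had 59.0, 78.4 and 96.8 in emerin KO muscle, 127, 165 and 130.4 in lamin A/C KO muscle, and 533 and 372 in control muscle. The injured arrays of every genotype lay far below its day 0 arrays, and on day 4 emerin KO lay below lamin A/C KO and lamin A/C KO below control muscle without overlap, an order that 0.887% of the 11165 genes tested shared.

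The highest of the 16 injured values was 533 and the lowest of the 7 day 0 values was 5359.6, a 10.1-fold gap. It was the third widest gap of this direction among the 11165 genes tested. Across those genes, 10.6% had every day 0 array above every injured array, and this contrast helped to choose the pair. Because a signal near 100 is close to the limit of what was counted as measured, folds against a group mean under 100 are lower bounds against that minimum. Rpl3l was 47.5-fold lower on day 3 and at least 73.6-fold lower on day 4 than on day 0 in emerin KO muscle. In lamin A/C KO muscle it was at least 61.5-fold lower on day 3 and 43.6-fold lower on day 4. In control muscle it was 28.5-fold lower on day 3 and 14.2-fold lower on day 4.

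On the log2(signal + 32) scale, which understates changes of dim genes, the day 3 difference from day 0 was -5.32 ± 0.31 in emerin KO, -5.71 ± 0.28 in lamin A/C KO and -4.83 ± 0.34 in control muscle (SE). The day 4 difference was -6.08 ± 0.31 in emerin KO, -5.16 ± 0.28 in lamin A/C KO and -3.75 ± 0.34 in control muscle. These bulk arrays cannot tell fewer muscle fibers apart from less Rpl3l RNA in each fiber. The mature fast contractile genes fell with Rpl3l: all 25 measured members were lower on day 3 in each genotype, with a median log2 difference of -2.44 in emerin KO, -2.21 in lamin A/C KO and -1.69 in control muscle. Macrophage markers rose on day 3, 24 of 25 in emerin KO, all 25 in lamin A/C KO and 24 of 25 in control muscle. Across all 11165 genes 22.2% fell and 23.9% rose on day 3 in emerin KO, 19.6% fell and 23.4% rose in lamin A/C KO, and 14.2% fell and 20.1% rose in control muscle. The part of these lists in the fall of Rpl3l was not tested.

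**Figure D1:**
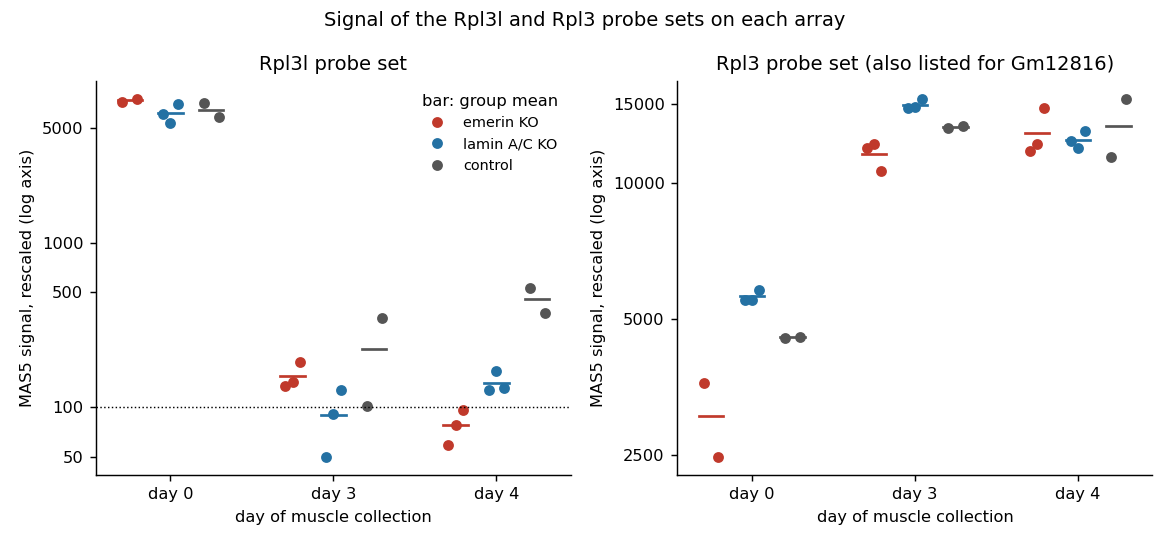
Rescaled MAS5 signal (log axis) of the Rpl3l probe set and of the brighter Rpl3 probe set on each array, by day of muscle collection and genotype. Points are arrays, bars are group means, and the dotted line marks a signal of 100. Rpl3l lies between 5359.6 and 7499.7 on day 0 and at or below 533 after injury, and Rpl3 lies at or below 5791 on day 0 and at or above 10611 after injury.

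Rpl3 ran the other way. Its brighter probe set had 3612 and 2474 on day 0 in emerin KO muscle, 5516, 5515 and 5791 in lamin A/C KO muscle, and 4542 and 4560.0 in control muscle. On day 3 it had 11981, 12205 and 10611 in emerin KO muscle, 14675, 14756 and 15314 in lamin A/C KO muscle, and 13252 and 13358 in control muscle. On day 4 it had 11747, 12226 and 14668 in emerin KO muscle, 12412, 11944 and 13050.4 in lamin A/C KO muscle, and 11431 and 15357 in control muscle. Every injured array was above every day 0 array, a pattern that 12.4% of the 11165 genes shared. The injured arrays were brighter than 99.5% to 99.8% of all probe sets on their arrays, and the day 0 arrays than 94.8% to 98.1%.

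Rpl3 was 3.81-fold higher on day 3 and 4.23-fold higher on day 4 than on day 0 in emerin KO muscle. It was 2.66-fold and 2.22-fold higher in lamin A/C KO muscle, and 2.92-fold and 2.94-fold higher in control muscle. The log2 differences for day 3 were 1.94 ± 0.15 in emerin KO, 1.41 ± 0.13 in lamin A/C KO and 1.54 ± 0.16 in control muscle (SE). Those for day 4 were 2.09 ± 0.15, 1.15 ± 0.13 and 1.54 ± 0.16 in the same order.

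The dimmer Rpl3 probe set was near the minimum and gave a less even picture. Its signals ran from 53.8 to 265 on the injured arrays and from 18.1 to 142 on the day 0 arrays. The log2 difference between day 3 and day 0 was 0.50 ± 0.38 in emerin KO, 1.09 ± 0.34 in lamin A/C KO and 1.25 ± 0.41 in control muscle (SE). In emerin KO muscle the day 4 difference was -0.36 ± 0.38, the opposite sign of the brighter set. This set was brightest on day 0 in emerin KO muscle, where the brighter set was dimmest.

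Ranked by group mean, Rpl3l ran from 7359 in emerin KO on day 0 through 6424 in control and 6147 in lamin A/C KO on day 0 to 452 in control on day 4. It continued with 225 in control on day 3, 155 in emerin KO on day 3, 141 in lamin A/C KO on day 4, 89.4 in lamin A/C KO on day 3 and 78.1 in emerin KO on day 4. For Rpl3 the order began at 14915 in lamin A/C KO on day 3, then 13394 and 13305 in control on days 4 and 3, 12880.4 in emerin KO on day 4, 12469 in lamin A/C KO on day 4 and 11599 in emerin KO on day 3. The day 0 groups closed it, with 5607 in lamin A/C KO, 4551 in control and 3043 in emerin KO muscle. For Rpl3 the arrays of every neighbouring pair among the injured groups overlapped, so no step between neighbours there exceeds the spread. Groups further apart could be separate: on day 3 emerin KO lay below control and control below lamin A/C KO muscle without overlap, as for 0.528% of genes, and lamin A/C KO was lower on day 4 than on day 3 without overlap, as for 13.7%. The day 0 groups did not overlap with each other, in an order of emerin KO, control and lamin A/C KO that 1.62% of genes shared. For Rpl3l the neighbours that overlapped were control and lamin A/C KO on day 0, control and emerin KO on day 3, emerin KO on day 3 and lamin A/C KO on day 4, and lamin A/C KO on day 3 and emerin KO on day 4.

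The comparison of genotypes asked whether the pair differed between the knockouts and control at the same day. Each p below is from limma, adjusted by Benjamini-Hochberg over the 11165 genes within its comparison, with past the threshold meaning under 0.05. There were 18 tests for each gene, and 4 of the 36 passed. All 4 involved emerin KO muscle.

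Rpl3l was lower in emerin KO than in control muscle on day 4. The mean was 78.1 ± 18.9 in emerin KO and 452 ± 114 in control muscle (SD, n = 3 and 2), at least 4.52-fold lower. The log2 difference was -2.13 ± 0.31 (SE; 95% interval -2.78 to -1.48; limma adjusted p = 6.5e-04), with all 3 emerin KO arrays below both control arrays, as for 15.6% of genes. All 3 emerin KO values lie under the minimum of 100. In this comparison 3.3% of genes fell. The difference between emerin KO and control in the change between day 0 and day 4 was -2.33 ± 0.46 (limma adjusted p = 0.018), in a comparison where 0.215% of genes fell. That call was lost on leaving out control day 0 replicate 1 (-2.47, limma adjusted p = 0.053), control day 0 replicate 2 (-2.19, 0.099), control day 4 replicate 1 (-2.09, 0.11) or emerin KO day 0 replicate 2 (-2.31, 0.069).

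Emerin KO arrays stood apart in a sign of RNA quality, the signal at the 3' end of Gapdh over that at its 5' end. This ratio was 3.62 to 6.09 on emerin KO day 3 and 2.89, 1.40 and 5.30 on emerin KO day 4, and it lay between 0.822 and 1.64 on all arrays of the other groups. Without the arrays whose ratio was over 2, which left 1 emerin KO array on day 4, the Rpl3l difference on day 4 was -2.11, almost as large, and did not pass (limma adjusted p = 0.062). That p assumes that the lone array varies like the other groups. The interaction for day 4 and day 0 was -2.31 without them (0.13) and -2.38 with the ratio as a covariate (0.060).

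Other genes moved in the same day 4 comparison, in which 3.3% of all genes fell and 2.58% rose. Of 14 slow fiber genes 4 fell: Myh7, the slow myosin heavy chain (-1.70), Myl3 (-1.64), Myl2 (-1.52) and Fhl1 (-1.21). Of 25 mature fast contractile genes 2 fell, Pvalb (-1.71), a calcium buffer, and Ldb3 (-1.29), a Z-disc protein. The summed signal of that list ran from 164358 to 171262 in emerin KO and from 194813 to 219229 in control muscle. Of 18 fibroblast and matrix genes 5 fell, among them Postn (-1.43), Lum (-1.39), Tnc (-1.29) and Col5a2 (-0.76), all of the extracellular matrix. Their summed signal was 131032 to 141137 in emerin KO and 162014 to 182131 in control muscle. Of 25 macrophage genes 5 rose, among them Laptm5 (1.34) and Aif1 (1.14), with a summed signal of 118972 to 130494 in emerin KO and 101389 to 110013 in control muscle. Of 17 genes of regenerating fibers and myoblasts 4 rose, led by Chrng (1.65), the fetal subunit of the acetylcholine receptor. The part of these lists in the Rpl3l difference was not tested.

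In lamin A/C KO muscle Rpl3l averaged 141 ± 21.1 on day 4, against 452 ± 114 in control muscle (SD, n = 3 and 2). All its arrays lay below both control arrays, as for 12.3% of genes. The log2 difference of -1.47 ± 0.31 did not pass (limma adjusted p = 0.15), in a comparison where 0.0448% of genes fell. Emerin KO and lamin A/C KO muscle on day 4 differed by -0.66 ± 0.28, which did not pass (limma adjusted p = 0.12). All emerin KO arrays were below all lamin A/C KO arrays there, as for 13.8% of genes.

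On day 3 the control arrays were far apart, at 101 and 349. Neither the emerin KO difference of -0.28 ± 0.31 (limma adjusted p = 0.64) nor the lamin A/C KO difference of -0.94 ± 0.31 (0.48) passed. Without control day 3 replicate 1 they were -1.04 (limma adjusted p = 0.033) and -1.70 (0.037). Without control day 3 replicate 2 the emerin KO difference turned to 0.48 (0.40). On day 0 Rpl3l differed from control by 0.20 ± 0.34 in emerin KO (95% interval -0.51 to 0.91) and by -0.06 ± 0.31 in lamin A/C KO (95% interval -0.72 to 0.59), and neither passed. Emerin KO minus lamin A/C KO was 0.27 ± 0.31 on day 0 (limma adjusted p = 0.73) and 0.66 ± 0.28 on day 3 (0.15), where all 3 emerin KO arrays lay above all 3 lamin A/C KO arrays, as for 14.4% of genes.

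Between days 3 and 4 the Rpl3l differences were -0.77 ± 0.28 in emerin KO (limma adjusted p = 0.25), 0.56 ± 0.28 in lamin A/C KO (0.37) and 1.08 ± 0.34 in control muscle (0.60). None passed. All 3 day 4 arrays were below all 3 day 3 arrays in emerin KO, as for 6.47% of genes, and both control day 4 arrays were above both day 3 arrays, as for 15.2%. In control muscle 0.0448% of genes rose between these days. Without control day 3 replicate 2 the control difference was 1.84 (limma adjusted p = 0.024), and the emerin KO change minus the control change was -2.61 (0.0062), against -1.85 ± 0.44 with all arrays (0.19). The lamin A/C KO change minus the control change for day 4 and day 0 was -1.41 ± 0.44 (0.34).

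**Figure D2:**
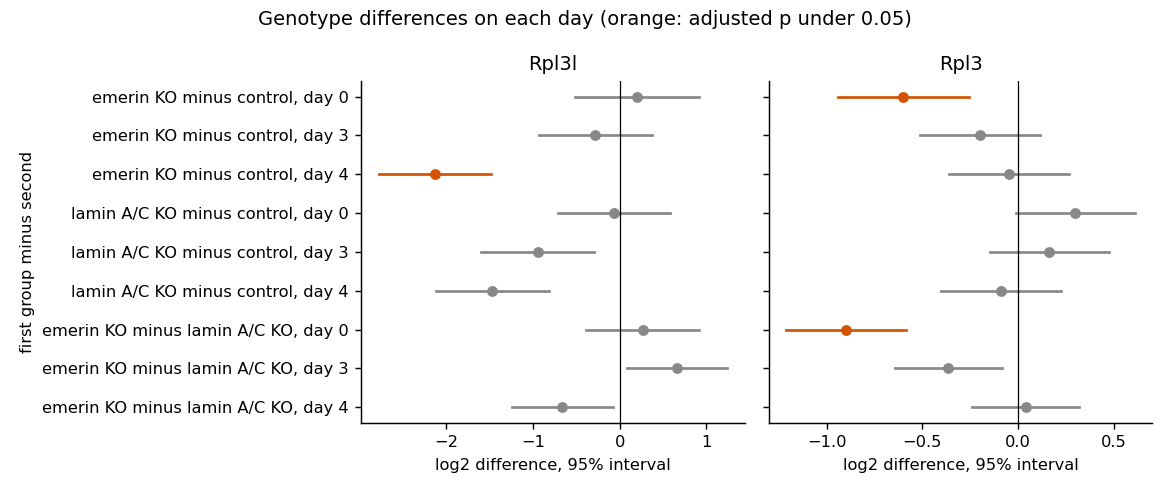
Log2 differences between genotypes on each day for Rpl3l and Rpl3, first-named group minus second, with 95% intervals from the limma model. Orange marks an adjusted p under 0.05: Rpl3l on day 4 in emerin KO minus control (-2.13), and Rpl3 on day 0 in emerin KO minus control (-0.60) and minus lamin A/C KO (-0.90).

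On day 0 Rpl3 differed between emerin KO and lamin A/C KO muscle. Day 0 muscle of lamin A/C KO mice is described as taken 0 days after injection, and that of emerin KO mice was not injected. Genotype and injection cannot be told apart in this comparison. Rpl3 averaged 3043 ± 805 in emerin KO and 5607 ± 159 in lamin A/C KO muscle (SD, n = 2 and 3). The log2 difference was -0.90 ± 0.15 (limma adjusted p = 5.3e-04) in a comparison where 4.19% of genes fell, and it passed without any 1 array. Against control muscle, at 4551 ± 12.6 (SD, n = 2), the emerin KO difference was -0.60 ± 0.16 (limma adjusted p = 0.048), where 2.04% of genes fell. This second call was fragile. It was lost without control day 0 replicate 1 (-0.60, limma adjusted p = 0.21), control day 0 replicate 2 (-0.60, 0.17) or emerin KO day 0 replicate 2 (-0.33, 0.52). With the mean of both Rpl3 probe sets the differences turned to 0.34 against control (0.51) and 0.011 against lamin A/C KO muscle (0.99).

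Fibroblast and matrix genes moved with Rpl3 on day 0, where 4.19% of all genes fell in emerin KO against lamin A/C KO and 2.04% against control muscle. Of 18 measured, 15 were lower in emerin KO than in lamin A/C KO muscle and 12 were lower than in control muscle. Their summed signal was 54520 to 88847 in emerin KO, 106220 to 160533 in lamin A/C KO and 121460 to 140750 in control muscle. Of 17 genes of regenerating fibers and myoblasts, 12 were lower in emerin KO than in lamin A/C KO muscle and 5 than in control muscle. Of 29 mitosis genes 9 and 7 were lower in these comparisons. The part of these lists in the Rpl3 difference was not tested. Eef1a1, the general translation elongation factor, also fell in emerin KO against lamin A/C KO muscle on day 0 (-0.83 ± 0.14, limma adjusted p = 5.3e-04). Of the large-subunit proteins 3 of 22 fell in that comparison and 0 of 22 changed against control muscle.

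The other Rpl3 comparisons of genotypes did not pass. On day 0 lamin A/C KO minus control was 0.30 ± 0.15 (limma adjusted p = 0.51). On day 3 emerin KO minus control was -0.20 ± 0.15 (0.44), lamin A/C KO minus control 0.16 ± 0.15 (0.87) and emerin KO minus lamin A/C KO -0.36 ± 0.13 (0.091). On day 4 the same differences were -0.05 ± 0.15 (0.90), -0.09 ± 0.15 (1.0) and 0.04 ± 0.13 (0.88). The emerin KO change minus the control change was 0.40 ± 0.22 for day 3 and day 0 (0.37) and 0.55 ± 0.22 for day 4 and day 0 (0.31). Rpl3 on days 3 and 4 thus gave intervals that reach from -0.64 to 0.48 over all 6 genotype differences.

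The other measured genes of the large and small subunit rose in part, and on day 3 by less than Rpl3. Of the 46 large-subunit genes listed, 22 had a probe set of their own and were tested. Another 20 were read only by probe sets that list several symbols, and 4 had no probe set. The Rpl3 set also lists a second symbol and was let in as an exception, so Rpl3 is compared here with only a part of the subunit. On day 3, 14 of these rose in emerin KO, 11 in lamin A/C KO and 10 in control muscle, and 0 fell. Across all genes 23.9%, 23.4% and 20.1% rose in these genotypes. The list medians were 0.63, 0.36 and 0.45 on the log2 scale, against -0.08, -0.08 and 0.09 over all genes. Rpl14, a protein of the large subunit, had the highest log2 difference of the list in each genotype on day 3, at 1.56 ± 0.21 in emerin KO, 1.01 ± 0.19 in lamin A/C KO and 1.07 ± 0.23 in control muscle (SE). The Rpl3 values of 1.94, 1.41 and 1.54 lay above it, as a description of a gene chosen for its change. On day 4 in lamin A/C KO muscle Rpl14 (1.18 ± 0.19) and the small-subunit gene Fau (1.25 ± 0.18) lay above Rpl3 (1.15 ± 0.13), within the error.

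Rpl11, which also binds Mdm2, rose by 0.74 in emerin KO, 0.61 in lamin A/C KO and 0.80 in control muscle on day 3. Rpl6 rose by 0.53, 0.67 and 0.68 and Rpl13a by 0.96, 0.47 and 0.63 in the same groups. On day 4, 13 of 22 rose in emerin KO, 10 in lamin A/C KO and 8 in control muscle, beside 23.5%, 21% and 19.5% of all genes. The control counts depend on single arrays and on scaling. Without control day 0 replicate 2, 2 of 22 rose on day 3 and 1 on day 4. Without control day 3 replicate 1 or replicate 2, 6 rose on day 3, and without control day 4 replicate 2, 3 rose on day 4. With arrays scaled to a common median, 2 rose on each of these days.

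The small subunit gave similar counts. Of 21 measured genes 16 rose on day 3 in emerin KO, 12 in lamin A/C KO and 8 in control muscle, and 0 fell, beside 23.9%, 23.4% and 20.1% of all genes that rose. The largest rises in control muscle were Rps25 at 1.22 ± 0.29, Rps9 at 1.07 ± 0.19, Rpsa, the laminin receptor protein, at 1.07 ± 0.19 and Fau, a fusion of a ubiquitin-like protein and Rps30, at 0.93 ± 0.22 (SE). In emerin KO muscle they were 1.86, 1.31, 1.47 and 1.10 in the same order, and in lamin A/C KO muscle 0.90, 0.86, 0.99 and 1.32. On day 4, 15 of 21 rose in emerin KO, 9 in lamin A/C KO and 6 in control muscle, beside 23.5%, 21% and 19.5% of all genes. Without control day 0 replicate 2, 5 rose on day 3 and 3 on day 4 in control muscle. Without control day 3 replicate 2, 5 rose on day 3, and without control day 4 replicate 2, 3 rose on day 4. With the Gapdh ratio as a covariate, 5 rose on day 3 and 6 on day 4 in emerin KO muscle, and 6 large-subunit genes rose on day 3.

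Of the genes for making ribosomes, a part rose. Of 56 measured, 24 rose and 6 fell on day 3 in emerin KO, 25 rose and 2 fell in lamin A/C KO, and 16 rose and 2 fell in control muscle. Over all genes 23.9% rose and 22.2% fell in emerin KO, 23.4% and 19.6% in lamin A/C KO, and 20.1% and 14.2% in control muscle. Fbl, which methylates ribosomal RNA in the nucleolus, rose by 2.82 ± 0.17 in emerin KO, 1.89 ± 0.15 in lamin A/C KO and 1.61 ± 0.18 in control muscle (SE). Nop58, its partner in that complex, rose by 0.85, 0.92 and 1.33. Npm1, the nucleolar chaperone nucleophosmin, rose by 1.35, 1.12 and 1.15. Eif6, which keeps new large subunits from joining too early, rose by 0.81, 0.98 and 1.02. Grwd1, whose yeast counterpart is a chaperone of L3, rose on day 3 in emerin KO (1.10 ± 0.20) and lamin A/C KO muscle (0.67 ± 0.18), and its control value of 0.34 ± 0.22 did not pass (limma adjusted p = 0.27). Mettl18, which methylates RPL3 in human cells, was -0.08, -0.66 and -0.19, and none passed.

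Some translation factors rose and others fell, to be read beside the same shares of all genes. Of 41, 13 rose and 15 fell on day 3 in emerin KO, 12 rose and 12 fell in lamin A/C KO, and 11 rose and 8 fell in control muscle. Pabpc1, the poly(A)-binding protein, rose by 1.39, 1.32 and 1.48 in these groups, and Eif3c, a subunit of initiation factor 3, rose by 1.18, 0.74 and 1.20. Eif4a2, an RNA helicase of initiation, fell (-1.97, -1.59 and -1.32). Among 18 genes of the Myc and mTOR axis, Myc rose on day 3 in lamin A/C KO (1.25 ± 0.23) and control muscle (1.69 ± 0.28) and was 0.28 ± 0.25 in emerin KO muscle, which did not pass. Ddit4l, an inhibitor of mTOR signalling found in muscle, fell. Its log2 differences were -3.28 ± 0.31, -3.80 ± 0.28 and -2.88 ± 0.34 in emerin KO, lamin A/C KO and control muscle. Ddit4 rose in lamin A/C KO (0.71 ± 0.19) and control muscle (1.62 ± 0.24). Its emerin KO value of 0.06 ± 0.22 did not pass. Sesn2 rose in control muscle (1.20 ± 0.43), and its values of 0.47 in emerin KO and 0.69 in lamin A/C KO muscle did not pass. Members of this list thus moved in both directions, and their part in the changes of the pair was not tested.

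**Figure D3:**
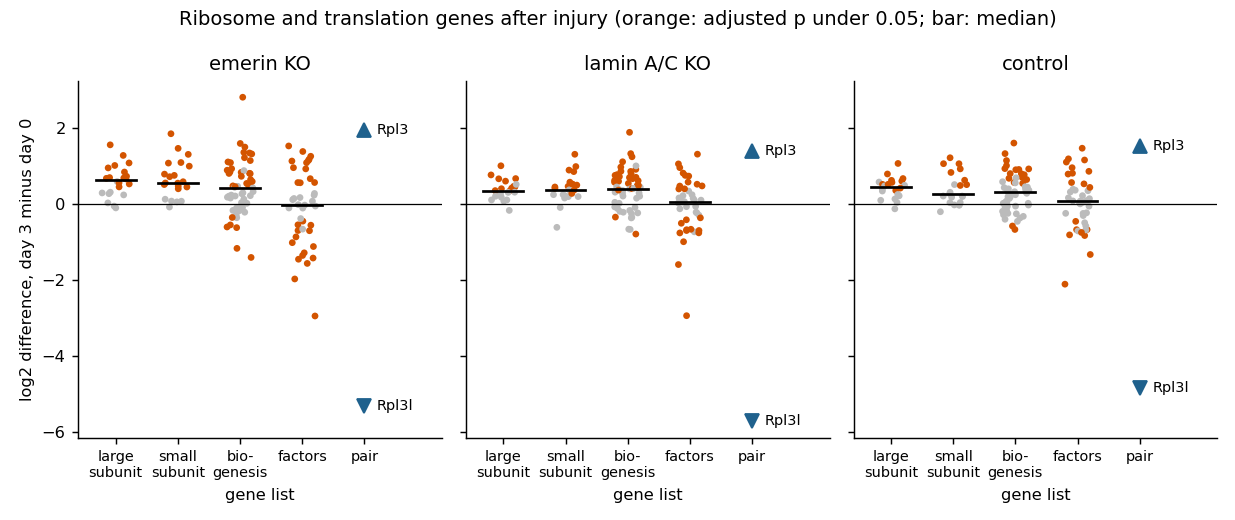
Log2 difference between day 3 and day 0 for each measured gene of the large subunit, the small subunit, ribosome biogenesis and translation factors, by genotype. Dots are genes, orange ones have an adjusted p under 0.05, bars are list medians, and triangles show Rpl3 and Rpl3l, which were not tested. Rpl3 lies above every large-subunit and small-subunit gene in each panel, and Rpl3l lies below every gene shown.

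Of the ribosomal proteins with a paralog, 5 such paralogs were measured. Rps4l, a relative of Rps4x, rose on day 3 by 1.95 ± 0.47 in emerin KO, 2.72 ± 0.42 in lamin A/C KO and 2.82 ± 0.52 in control muscle (SE). Rpl3, at 1.94, 1.41 and 1.54 in the same order, rose less than Rps4l in lamin A/C KO and control muscle. Rpl7l1, a relative of Rpl7, rose by 0.78, 0.74 and 0.93. Rpl39l, a relative of Rpl39, rose in emerin KO (1.26) and lamin A/C KO muscle (1.69), and its control value of 1.14 ± 0.55 did not pass (limma adjusted p = 0.13). Rps27l, a relative of Rps27, fell in emerin KO muscle (-0.71) and was -0.03 and -0.37 in lamin A/C KO and control muscle, which did not pass. In all, 3 of 5 rose and 1 fell in emerin KO, 3 rose in lamin A/C KO and 2 rose in control muscle. Across all genes 23.9%, 23.4% and 20.1% rose and 22.2%, 19.6% and 14.2% fell in these genotypes. Rpl22l1 was 0.31, 0.25 and 0.05 and its partner Rpl22 was 0.30, 0.11 and 0.48, and none of these passed. Rpl3l had the lowest log2 difference of all ribosomal protein genes measured on day 3.

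A muscle form falling while a general form rises was seen in many other gene pairs. Of 25 pairs listed, 19 besides Rpl3l and Rpl3 had both genes measured. On day 3 the muscle paralog fell and the general one rose in 13 of 19 pairs in emerin KO, 13 in lamin A/C KO and 13 in control muscle. Taken singly, the muscle paralog fell in 19, 19 and 18 pairs in the same order. The general one rose in 13 and fell in 3 pairs in each genotype. Across all genes 22.2% fell and 23.9% rose in emerin KO, 19.6% and 23.4% in lamin A/C KO, and 14.2% and 20.1% in control muscle. On day 4 the counts of pairs with both changes were 13, 12 and 13. Of all genes 20.8%, 18.2% and 14.3% fell and 23.5%, 21% and 19.5% rose there. The gap between the changes of Rpl3l and Rpl3 was the widest of the 20 pairs in each of the 6 comparisons, at -6.37 on the log2 scale in control muscle on day 3, and the pair was chosen for it. In control muscle on day 4 the gap was -5.29, level with -5.27 for Tuba8 and Tuba1a within the error.

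Pgam2, the muscle phosphoglycerate mutase, fell on day 3, with log2 differences of -3.08 in emerin KO, -2.95 in lamin A/C KO and -2.67 in control muscle. Its general form Pgam1 rose by 2.20, 2.01 and 2.38. In control muscle on day 3 the tubulin Tuba8 was -3.44 ± 0.30 and Tuba1a 1.38 ± 0.20 (SE). Cox8b and Cox8a, forms of a cytochrome oxidase subunit, were -3.44 ± 0.23 and 1.27 ± 0.18. Phkg1, the muscle catalytic subunit of phosphorylase kinase, was -4.18 ± 0.33, and Phkg2, its liver and testis form, was 0.33 ± 0.26 and did not pass. Slc2a4, the insulin-responsive glucose transporter, was -3.17 ± 0.19 and Slc2a1 was 1.26 ± 0.25.

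The pair closest to Rpl3l and Rpl3 in role is Eef1a2 and Eef1a1, the muscle and general forms of the elongation factor that brings aminoacyl-tRNA to the ribosome. Eef1a2 fell on day 3, with log2 differences of -2.94 in emerin KO, -2.93 in lamin A/C KO and -2.10 in control muscle. Eef1a1 rose by 1.14, 0.48 and 0.87. On day 4 Eef1a2 was -2.82, -2.63 and -1.66 and Eef1a1 1.21, 0.48 and 0.84. The day 4 difference of Eef1a2 between emerin KO and control muscle, -0.94 ± 0.28, did not pass (limma adjusted p = 0.053).

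Some pairs did not follow this pattern. Cox7a1 and Cox7a2 both fell in control muscle on day 3, with log2 differences of -4.09 and -0.94. Mapk12 and Mapk14, both p38 kinases, fell too (-2.69 and -1.02). Ppp1r3c, listed as the general partner of the glycogen-targeting subunit Ppp1r3a, fell by 3.04, while Ppp1r3a was -0.28 ± 0.33 and did not pass.

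**Figure D4:**
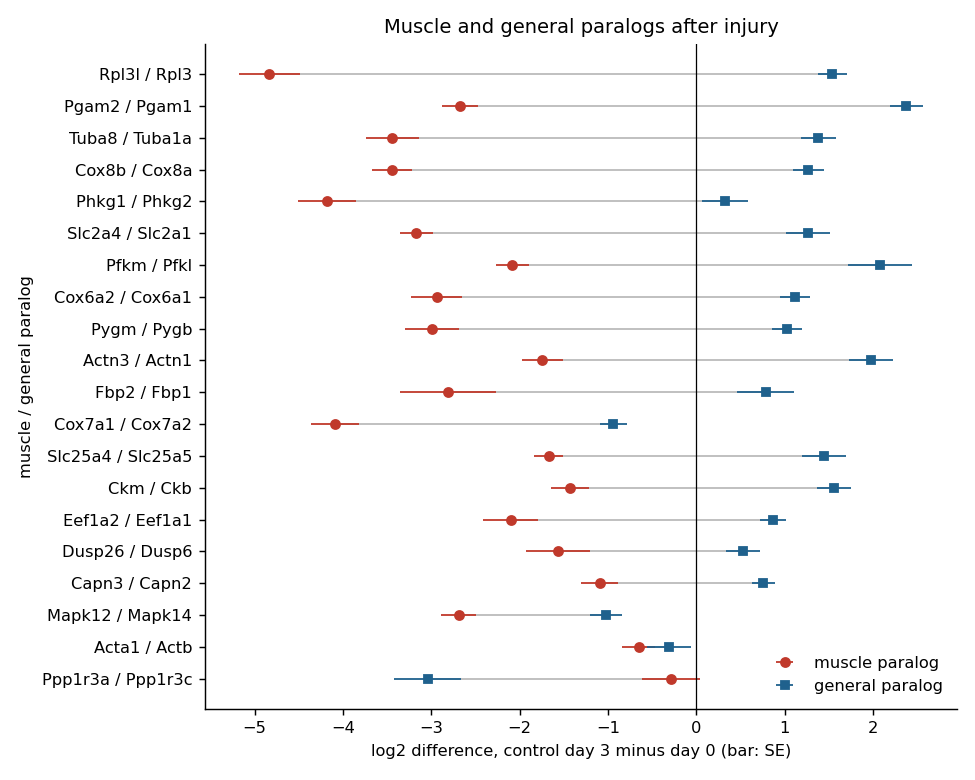
Log2 difference between day 3 and day 0 in control muscle for the muscle form (circle) and the general form (square) of 20 gene pairs, with SE bars, ordered by the gap between the 2 changes. Rpl3l and Rpl3 have the widest gap (-6.37), followed by Pgam2 and Pgam1 (-5.05), and Ppp1r3a and Ppp1r3c at the bottom run the other way (2.76).

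The genes whose log2 signal followed Rpl3l most closely over the 23 arrays were Tcea3 (Pearson r = 0.99), Cystm1 (0.98), Phkg1 (0.98), Asb11 (0.98) and Acyp2 (0.98). Tcea3 is a transcription elongation factor and Acyp2 the muscle acylphosphatase. Tcea3 averaged 1555 on day 0, 115 on day 3 and 97.2 on day 4 in emerin KO muscle, and 1599, 159 and 264 in control muscle. The most opposite were Pip4k2a (-0.98), Svbp (-0.98) and Tgfb1 (-0.97), the last a growth factor of tissue repair. For Rpl3 the closest were Plod3 (0.98) and Loxl1 (0.98), enzymes that modify collagen and elastin, Ckap4 (0.98), Tubb5 (0.98) and Plp2 (0.98). Its most opposite genes were Pink1 (-0.98), a kinase of mitochondrial quality control, Clip1 (-0.98) and Ecsit (-0.97). Among 11164 other genes ranked by their correlation with Rpl3l, Rpl3 stood at 10806. All these values rest largely on the contrast between 7 day 0 and 16 injured arrays, which the points share, and are a description.

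As a check of the labels, Lmna averaged 77.8 on day 0, 61.1 on day 3 and 70.8 on day 4 in lamin A/C KO muscle, against 889.9, 3992 and 3744 in control muscle. Emd averaged 418, 262 and 207 in emerin KO muscle, against 678, 766 and 692 in control muscle.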

How the data were processed

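RNA of mouse gastrocnemius muscle was measured on 23 Affymetrix arrays, grouped by title and description. The authors deposited a linear intensity for each probe set, made with MAS5 per the submitters' processing notes, in a release not given in the sources used here. All deposited columns have a trimmed mean near 150.1. Signals were rescaled to a trimmed mean of 500 (2% trimmed at each end) and log2(signal + 32) was taken. Symbols came from GEO's platform annotation of 2016: 20380 of 22690 probe sets had 1 symbol, 691 several, 1555 none, and 64 were controls. The brightest probe set stood for each gene. Rpl3 has no probe set of its own, and its brighter set was added as 1 feature, which gave 11165 features that reached a signal of 100 on 2 or more arrays.

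Linear models with limma 3.58.1 (lmFit, eBayes with trend; R 4.3.3) were fitted to all 9 groups with 14 residual degrees of freedom, and p-values were adjusted by Benjamini-Hochberg within each of 24 comparisons. The number of arrays limits the precision. The members, the 14 gene lists and the 25 pairs were chosen with earlier results of these data known. The text names at most 4 passing members per list with the largest change in control muscle on day 3 or in another comparison described, at most 6 pairs in full with others as exceptions, and the 5 most and 3 least correlated genes. Genes read by probe sets that may share signal with relatives, with IDs ending in _s_at or _x_at, include Rpl13a, Rps9, Fbl, Grwd1 and Eif3c. The replicate numbers did not pair the samples: the median correlation of deviations was 0.02 for the same number and -0.02 for other numbers. The fit was also run on simulated data, with independent noise and known changes added to emerin KO day 4. That simulation held no difference in RNA quality and no floor for dim signals, so it says nothing about these limits. Alternatives were other scalings, pseudocounts, filters and probe-set rules, the Gapdh ratio, a replicate block, fewer groups, and leaving out each array. Figures were drawn with matplotlib 3.10.9.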

Additional observations from a re-analysis of the deposited data

Results flagged for a closer look

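For Rpl3l, the change between day 0 and day 4 differed between emerin KO and control muscle. The interaction in the limma fit was -2.33 ± 0.46 on the log2 scale (adjusted p = 0.018), with changes of -6.08 in emerin KO and -3.75 in control muscle. All 3 emerin KO arrays of day 4, at 59.0 to 96.8, lay below both control arrays, at 372 and 533. The call was lost on leaving out any of 4 single arrays (limma adjusted p = 0.053 to 0.11), with the Gapdh ratio in the model (-2.38, 0.060) and without the arrays of a high ratio (-2.31, 0.13). Of the emerin KO arrays of days 3 and 4, all but 1 of day 4 had a ratio over 2, and the ratio was at most 1.64 in the other groups.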

How the results depend on the processing

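Each result was recomputed under 12 alternatives and with each array of its groups left out in turn. Comparisons with emerin KO on day 3 had 11 alternatives, since all arrays of that group had a Gapdh ratio over 2. Those comparisons could not be recomputed without the arrays of a high ratio. Of the tested differences of both genes, 399 values under the alternatives and 218 with an array left out kept their direction and their side of the threshold. Under the alternatives 13 changed sign, 8 no longer passed and 2 newly passed. With an array left out these numbers were 11, 7 and 4. As 4 of the 36 tests passed, most of the values that kept belong to differences that did not pass. Quantile normalization gave Rpl3 differences from day 0 of 1.82 on day 3 and 1.85 on day 4 in control and of 1.60 and 1.31 in lamin A/C KO muscle. It gave -0.38 for emerin KO minus lamin A/C KO on day 3, which then passed (limma adjusted p = 0.019). It also raised the counts of ribosomal genes that rose: 17 and 16 large-subunit genes on days 3 and 4 in lamin A/C KO and 14 in control on day 4, with 20 and 18 small-subunit genes in lamin A/C KO and 15 and 14 in control. Median scaling shifted the median of all genes by -0.11 for control day 3 minus day 0 and by -0.12 for emerin KO against control on day 0. It gave 2 large-subunit genes on each day and 5 small-subunit genes on day 3 in control muscle, and an Rpl3 difference for emerin KO minus control on day 0 of -0.73 (limma adjusted p = 0.12).

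The same Rpl3 difference stayed at -0.60 but did not pass with no filter (limma adjusted p = 0.064), without the intensity trend (0.087) or with only the compared groups fitted (0.33). With the replicate number as a block it was also -0.60 (0.056). The block changed no other call, and the numbers gave no clear sign of pairing the samples. With only the compared groups, the Rpl3l interaction for lamin A/C KO on days 4 and 0, -1.41, passed (0.044), and 8 small-subunit genes rose in emerin KO on day 3.

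The mean of all probe sets gave Rpl3 differences from day 0 of 1.22 and 0.86 on days 3 and 4 in emerin KO, 1.25 and 0.88 in lamin A/C KO, and 1.24 on day 4 in control muscle. It turned the sign of emerin KO minus control on day 0 (0.34) and day 3 (0.16), of emerin KO minus lamin A/C KO on day 0 (0.011) and day 4 (-0.00398), of emerin KO day 4 minus day 3 (-0.36), and of the 3 emerin KO interactions (-0.17, -0.37 and -0.20). This mean weights the dim set and the bright set equally. Other turned signs, all of differences that did not pass, were Rpl3 control day 4 minus day 3 (0.035 with median scaling, 0.030 with quantile normalization) and the lamin A/C KO interaction of day 3 and day 0 (0.062 with median scaling).

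The Gapdh ratio as a covariate gave -2.38 for the Rpl3l interaction of emerin KO on days 4 and 0 (limma adjusted p = 0.060), 1.72 for Rpl3 in emerin KO on day 3 and -0.14 for Rpl3 in emerin KO minus lamin A/C KO on day 4. Fewer ribosomal genes rose with it: 6 large-subunit genes in emerin KO on day 3, and 5 and 6 small-subunit genes in emerin KO on days 3 and 4 with 7 in lamin A/C KO on day 3. Without arrays of a high ratio the Rpl3l values were -2.31 (0.13) for that interaction and -2.11 (0.062) for emerin KO against control on day 4, and Rpl3 was -0.027 for emerin KO minus lamin A/C KO on day 4. A pseudocount of 100 gave Rpl3l differences from day 0 of -4.88 and -5.39 in emerin KO, -5.06 and -4.69 in lamin A/C KO and -4.43 on day 3 in control muscle. A pseudocount of 1 gave -6.57 in emerin KO on day 4 and -6.18 in lamin A/C KO on day 3. The cause of these changes was not tested.

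With arrays left out in turn, Rpl3 differences from day 0 ran from 1.67 to 2.21 on day 3 and from 1.82 to 2.36 on day 4 in emerin KO and from 1.32 to 1.75 on day 4 in control muscle. Rpl3 ran from -0.22 to 0.21 for control day 4 minus day 3, from -0.060 to 0.37 for the emerin KO interaction of those days, from -0.87 to -0.33 for emerin KO against control on day 0 and from -0.26 to 0.16 on day 4. It ran from -0.056 to 0.10 for emerin KO minus lamin A/C KO and from -0.30 to 0.12 for lamin A/C KO against control, both on day 4. Rpl3l ran from -5.59 to -4.08 for control day 3 minus day 0 and from 0.33 to 1.84 for control day 4 minus day 3. Its emerin KO interactions ran from -1.24 to 0.27 for day 3 and day 0, from -2.58 to -2.09 for day 4 and day 0 and from -2.61 to -1.09 for day 4 and day 3, and the lamin A/C KO one of day 4 and day 3 from -1.28 to 0.23. Rpl3l ran from -1.04 to 0.48 for emerin KO minus control on day 3, from -0.20 to 0.075 for lamin A/C KO against control on day 0 and from -1.70 to -0.19 on day 3. Large-subunit genes that rose in control muscle numbered 2 to 8 on day 3 and 1 to 7 on day 4, and small-subunit genes 5 to 8 and 3 to 6. With 2 arrays in each control group, and Rpl3l near the minimum after injury, small differences were not detectable.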
